A study of Homo sapiens with 9 samples.

Results

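The genes of mitochondrial fatty acid oxidation were followed in human spinal cord organoids exposed to vehicle, valproic acid (VPA) or VPA with Rapamycin. The set holds 37 genes named by symbol, taken by name from the deposited gene tables, of 31589 genes listed in at least 1 of these tables. No cut on measured values was used, but the genes were chosen with earlier results of these data known. All 37 symbols were found. They cover the carnitine shuttle (7 genes), the acyl-CoA synthetases (3), the acyl-CoA dehydrogenases (9), the hydratase, hydroxyacyl dehydrogenase and thiolase steps (5), auxiliary enzymes for unsaturated chains (3), electron transfer (3), peroxisomal enzymes (4) and regulators (3). ACAA1, ACOX3, EHHADH and HSD17B4 encode peroxisomal enzymes, so the set reaches beyond the mitochondrion.

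Spinal cord organoids are floating aggregates, here grown from WTC, a human induced pluripotent stem cell line. The methods describe clones of this line that carry an edited SOX10 reporter, while the labels list every library as genotype WT. The sample descriptions repeat the same 3 names in each condition. These names differ from the clone names in the paper, and the labels do not say what they mark. Each of the 3 groups has 3 libraries of polyadenylated RNA from whole organoids, pooled before extraction. The vehicle libraries carry FGF in their titles, and the methods give VPA together with FGF. The labels give 96 h of treatment for all groups. The paper states other exposure times and more than a single VPA concentration, and the labels give no dose, so no dose is printed here. No library received Rapamycin alone, so an effect of Rapamycin without VPA was not measured.

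Fatty acids are activated to acyl-CoA esters, exchanged onto carnitine to cross the inner mitochondrial membrane, and shortened by repeated rounds of dehydrogenation, hydration, a second dehydrogenation and thiolysis. Electrons leave the first step through the electron transfer flavoprotein, and the nuclear receptor PPARalpha with its coactivator PGC-1alpha drives many of these genes in liver, heart and muscle. VPA is itself a branched short-chain fatty acid that cells convert to CoA and carnitine esters and partly break down in mitochondria, and it is known to disturb fatty acid oxidation in liver. Neural tissue burns less fat than these organs and expresses a carnitine palmitoyltransferase of its own, CPT1C.

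Library depth was even, with 15290299 to 17417338 counted reads per library and 5.14% to 7.41% of them on mitochondrially encoded genes. The summed normalized counts of 8 neural progenitor markers ran from 41147 to 49637 in vehicle, from 50716 to 54046 under VPA and from 44805 to 49373 with Rapamycin added, and each of the 8 reached 10 normalized counts. For 8 neuron markers the sums ran from 24912 to 43080, from 22745 to 24247 and from 24544 to 26002. Of these 8 neuron markers 5 were lower and none higher in VPA than in vehicle by the test used here. Adding Rapamycin to VPA raised 2 and lowered none. Of the 8 progenitor markers 1 was higher and 1 lower in VPA, and adding Rapamycin lowered 2. Over all genes tested 16.4% were higher and 15.7% lower in VPA than in vehicle. With Rapamycin against VPA 3.01% were higher and 3.73% lower. Sums for 9 mesenchymal markers ran from 2479 to 5230, from 9539 to 12141 and from 4240 to 6320. Of the 8 tested, 2 were higher and none lower in VPA than in vehicle, and adding Rapamycin to VPA lowered 6. For 8 neural crest markers they ran from 8242 to 9822, from 7770 to 8235 and from 8081 to 8666, with 4 of 7 tested lower and 1 higher in VPA than in vehicle. Adding Rapamycin to VPA raised 2 of these 7 and lowered none. In TFAP2B vehicle replicate 3 stood apart, with 314 normalized counts against at most 7.86 in the other 8 libraries. Hepatocyte, adipocyte and skeletal muscle markers were low, with sums of at most 43.7, 21.8 and 147 normalized counts, and AFP, LEP and MYF5 were in none of the tables, which leave out genes with almost no reads. Endothelial sums stayed between 184 and 282, astrocyte sums between 25.4 and 91.0, and pluripotency sums between 1797 and 3771. The part of these cell type markers in the results was not tested, and in bulk RNA fewer cells of a type and less RNA per cell cannot be told apart.

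ECHS1, HADHA, ACADVL and HADHB, all of the beta-oxidation spiral, had the highest levels per length in vehicle. Levels between genes were compared as FPKM, which divides reads by gene length. The deposited length was 1617 bases for ECHS1 and 12086 for HADH, so this order depends on the annotated length. HADH, also of the spiral, had 5.09 ± 0.22 FPKM in vehicle. In normalized counts it had a vehicle mean of 1019, against 1587 for ECHS1 and 2763 for HADHA. In vehicle ECHS1, the short-chain enoyl-CoA hydratase, was highest at 59.3 ± 4.03 FPKM (SD, n = 3). HADHA and HADHB, the subunits of the mitochondrial trifunctional protein, followed with 38.1 ± 2.26 and 22.0 ± 0.81 FPKM, on either side of ACADVL, the very long-chain acyl-CoA dehydrogenase, at 25.7 ± 5.22. ACADVL and HADHB overlapped in their libraries, whereas ECHS1 and HADHA did not overlap with the gene below them. A long middle group from ACSL3 (16.96 ± 3.85 FPKM) down to ETFB (2.24 ± 0.56 FPKM) had neighbours that overlapped at each step. At the low end lay CPT1A (0.69 ± 0.10 FPKM), CPT1B (0.37 ± 0.16), the carnitine importer SLC22A5 (0.32 ± 0.07) and PPARGC1A (0.19 ± 0.08). ACADL, the long-chain dehydrogenase, had 0 to 6.25 normalized counts and ACAD11 2.18 to 10.4 over the 9 libraries, and neither had enough reads for a test.

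**Figure D1:**
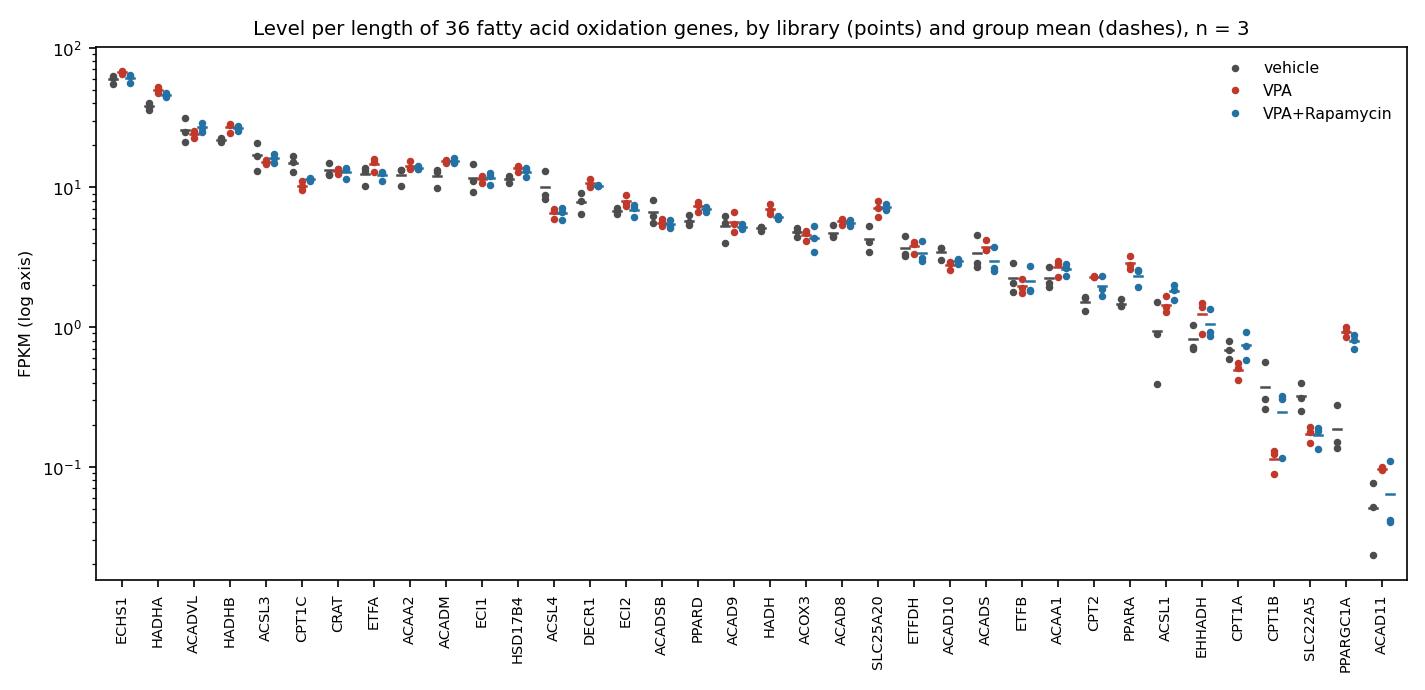
Deposited FPKM (log axis) of 36 of the 37 genes, ordered by their mean in vehicle, with a point for each library and a dash for each group mean (n = 3). ECHS1 lies highest and ACAD11 lowest, PPARGC1A moves from 0.19 FPKM in vehicle to 0.92 in VPA, and ACADL is left out because several libraries are at 0.

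Isoform families were uneven. Of the summed FPKM of the 3 CPT1 genes, CPT1C supplied 93.4% ± 1.03 (SD, n = 3) in vehicle. Its share was 94.4% ± 0.23 under VPA and 92.1% ± 1.87 with Rapamycin added. CPT1A, the liver form that is the usual rate-limiting gate of the pathway, supplied 4.37% ± 1.15, 4.51% ± 0.38 and 5.96% ± 1.07. The vehicle libraries overlapped with both other groups, and the VPA libraries (4.07% to 4.74%) lay below those of VPA+Rapamycin (4.91% to 7.05%). CPT1B, the muscle form, supplied 1.84% to 3.10% in vehicle, 0.82% to 1.27% under VPA and 0.97% to 2.47% with Rapamycin added. Of the 3 long-chain acyl-CoA synthetases, ACSL3 made up 60.8%, 65.4% and 65.9% of their FPKM, ACSL4 36.0%, 28.4% and 26.7%, and ACSL1 3.14%, 6.25% and 7.37%, in the order vehicle, VPA and VPA+Rapamycin. For each of the 3 synthetases the vehicle libraries did not overlap with those of either treated group, and these shares have no test.

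The first comparison asked how VPA changed the pathway against vehicle. Of the 37 genes 35 had enough reads, and 12 of these passed an adjusted p of 0.05, 8 higher and 4 lower in VPA (edgeR quasi-likelihood F test, Benjamini-Hochberg adjustment over all 17360 genes tested). That is 34.3% of the 35, against 32.1% of all genes tested, so the share called was near the background. In direction, 22.9% of the 35 were higher, against 16.4% of all genes, and 11.4% were lower, against 15.7%. Estimates were above 0 for 22 genes and below 0 for 13, and the median log2 fold change was 0.22 against −0.00 over all genes. The 3 libraries of VPA did not overlap with those of vehicle for 21 of the 35 (60.0%), against 47.5% of all genes tested. DESeq2 called 12 of the genes as well, 9 higher and 3 lower, with ACADM in place of SLC22A5. The counts rested on single libraries: without VPA replicate 2 only 3 genes were raised and 1 lowered, and 13 were raised and 5 lowered without vehicle replicate 3. Without vehicle replicate 1, 8 were raised and 3 lowered. Over all genes 6476 were called without vehicle replicate 3 and 6710 without vehicle replicate 1. Leaving out VPA replicate 1 or VPA replicate 3 gave 5 raised and 1 lowered each, and leaving out vehicle replicate 2 gave 5 raised and 4 lowered.

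The largest difference lay in the regulators. PPARGC1A (ENSG00000109819, chromosome 4, 23755041 to 23904089, minus strand) encodes PGC-1alpha, the coactivator that promotes mitochondrial and oxidative gene expression. The vehicle libraries held 24.4, 50.0 and 26.6 normalized counts, and those of VPA held 169, 155 and 180. The groups were far apart, with every VPA library more than 3 times the highest vehicle library, and the log2 fold change was 2.31 ± 0.29 (SE, adjusted p = 0.000218). At 0.92 FPKM in VPA it was still among the low genes of the set. PPARA (ENSG00000186951, chromosome 22, 46150521 to 46243756, plus strand), the nuclear receptor itself, went from 310, 312 and 343 to 576, 717 and 618 normalized counts. Again no library overlapped, and the log2 fold change was 0.97 ± 0.13 (adjusted p = 0.000384). Both calls held without any single library, with adjusted p of at most 0.0045. PPARD, the widely expressed relative of PPARA, had 391 to 473 normalized counts in vehicle and 498 to 587 in VPA, a log2 fold change of 0.35 ± 0.13 that missed the threshold (adjusted p = 0.063). Without vehicle replicate 1 its adjusted p was 0.023.

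Of the 7 genes of the carnitine shuttle 2 were higher, 3 lower and 2 did not pass, where 16.4% of all genes were higher and 15.7% lower. Of these 5 calls 3 were lost when single libraries were left out. SLC25A20 (ENSG00000178537, chromosome 3, 48856931 to 48898993, minus strand), the carnitine-acylcarnitine translocase of the inner membrane, had 113, 175 and 132 normalized counts in vehicle and 203, 237 and 266 in VPA. All VPA libraries lay above all vehicle libraries, with a log2 fold change of 0.74 ± 0.20 (adjusted p = 0.0167). CPT2 (ENSG00000157184, chromosome 1, 53196429 to 53214197, plus strand), which returns the acyl group to CoA inside the mitochondrion, had 281, 283 and 224 normalized counts in vehicle and 398, 405 and 397 in VPA. The VPA libraries were nearly equal and the log2 fold change was 0.60 ± 0.14 (adjusted p = 0.0089). The call on SLC25A20 was lost without VPA replicate 2 (adjusted p = 0.059) or VPA replicate 3 (adjusted p = 0.079), while that on CPT2 held without any single library.

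The 3 shuttle genes that fell encode proteins of other membranes than the inner mitochondrial one. CPT1C (ENSG00000169169, chromosome 19, 49690898 to 49713731, plus strand), the neural form found mainly in the endoplasmic reticulum and with little transferase activity of its own, had 1637, 1487 and 1245 normalized counts in vehicle and 943, 1005 and 1083 in VPA. The change on the log2 scale was −0.54 ± 0.12 (adjusted p = 0.0072), and the groups did not overlap. CPT1B (ENSG00000205560, chromosome 22, 50568861 to 50578465, minus strand) had 38.1, 20.7 and 17.4 normalized counts against 8.88, 6.11 and 8.45. These are few reads, and the log2 fold change of −1.69 ± 0.49 (adjusted p = 0.021) lost its call without vehicle replicate 1 (−1.28, adjusted p = 0.096) or without VPA replicate 1, 2 or 3 (adjusted p = 0.061, 0.088 and 0.066). SLC22A5 (ENSG00000197375, chromosome 5, 132369752 to 132395614, plus strand), also called OCTN2, takes up carnitine across the plasma membrane. It had 84.0, 53.3 and 65.4 normalized counts in vehicle and 31.6, 40.8 and 37.5 in VPA, with a log2 fold change of −0.89 ± 0.29 (adjusted p = 0.037). DESeq2 gave SLC22A5 an adjusted p of 0.054, and the call was lost without vehicle replicate 1 or VPA replicate 1, 2 or 3 (adjusted p of 0.079 to 0.13) and under a replicate block, in which libraries of the same number share a term (0.064). CPT1A had 74.3, 64.2 and 85.9 normalized counts in vehicle and 45.4, 56.0 and 61.0 in VPA, which did not overlap, but its log2 fold change of −0.48 ± 0.26 did not pass (adjusted p = 0.18). CRAT, the matrix carnitine acetyltransferase, gave −0.01 ± 0.12.

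Among the synthetases, ACSL4 (ENSG00000068366, chromosome X, 109624244 to 109733403, minus strand), which prefers arachidonic acid and other polyunsaturated chains, had 876, 943 and 1386 normalized counts in vehicle and 749, 729 and 642 in VPA. All VPA libraries were below all vehicle libraries, and the log2 fold change was −0.61 ± 0.17 (adjusted p = 0.018). Vehicle replicate 3 was the highest of the 9 libraries, and without it the log2 fold change was −0.37. The call was lost without VPA replicate 1, 2 or 3, with adjusted p of 0.051, 0.061 and 0.088. ACSL1, the main synthetase of fat and muscle, spread widely in vehicle (41.0, 92.5 and 156 normalized counts) and had 134, 147 and 175 in VPA, so the groups overlapped and 0.64 ± 0.37 did not pass (adjusted p = 0.21). Without vehicle replicate 3 ACSL1 gave 1.19 with an adjusted p of 0.0038, and with the replicate block 0.79 with an adjusted p of 0.047. ACSL3, the most abundant of the 3, gave −0.16 ± 0.15, and −0.30 with an adjusted p of 0.036 without vehicle replicate 1.

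For promoters, a RefSeq table (GRCh38.p14) held 43 promoters of 30 of the 37 genes. ETFDH, EHHADH, ACAD11, CPT1B, DECR1, CRAT and ACAA1 had no entry. Stretches of 4 are shown to set 2 raised genes, PPARA and SLC25A20, beside 2 lowered ones, CPT1C and ACSL4. Each is the part of the 250 bases before a RefSeq start that no annotated exon covers, written 5′ to 3′ on the gene's strand. They lie at chr22:46150276-46150520 (plus strand), chr3:48898994-48899132 (minus), chr19:49690598-49690847 (plus) and chrX:109733404-109733507 (minus). Capitals mark GGGCGG on either strand, the GC box read by SP1 and its relatives, and 1 pair of matches in PPARA overlaps.
PPARA: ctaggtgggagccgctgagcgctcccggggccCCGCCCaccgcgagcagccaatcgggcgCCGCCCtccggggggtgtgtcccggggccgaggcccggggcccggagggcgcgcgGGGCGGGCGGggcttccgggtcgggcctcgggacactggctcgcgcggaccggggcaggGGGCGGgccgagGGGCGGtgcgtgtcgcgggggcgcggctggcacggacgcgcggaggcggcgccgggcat
SLC25A20: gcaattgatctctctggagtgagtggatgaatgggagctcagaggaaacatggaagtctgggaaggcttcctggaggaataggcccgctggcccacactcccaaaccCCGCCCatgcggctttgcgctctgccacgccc
CPT1C: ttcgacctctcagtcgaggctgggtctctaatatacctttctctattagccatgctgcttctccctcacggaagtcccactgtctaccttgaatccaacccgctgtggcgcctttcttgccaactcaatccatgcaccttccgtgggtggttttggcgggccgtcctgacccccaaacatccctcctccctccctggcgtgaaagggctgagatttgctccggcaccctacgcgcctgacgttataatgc
ACSL4: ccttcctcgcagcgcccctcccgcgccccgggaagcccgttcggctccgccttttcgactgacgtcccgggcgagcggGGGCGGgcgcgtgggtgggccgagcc

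The stretches differed in base composition, with 84.1% G or C in PPARA and 56.4% in CPT1C. PPARA, for which 1 of 2 promoters in the table is shown, held 6 matches to GGGCGG, and SLC25A20 and ACSL4 held 1 each. CPT1C, for which 1 of 3 promoters is shown, held none, but another of its promoters in the table held the motif. The stretches were of unequal length, 245 bases for PPARA, 139 for SLC25A20, 250 for CPT1C and 104 for ACSL4, so these counts cannot be compared directly. Over the full 250 bases GGGCGG stood on either strand in 32 of the 43 promoters (74.4%), against 42.6% of all 35116 promoters in the table. The half-site of the nuclear receptors, AGGTCA, stood in 1 of the 43, that of ACAD10, against 12.1% of all promoters, and its direct repeat with 1 base between, the element that PPAR and RXR bind as a pair, in 0 of 43 against 0.0171%. The AP-1 motif TGANTCA, on either strand, stood in 3 of the 43, those of ACADVL, ACSL1 and CPT1C, against 6.57% of all promoters. A missing match says only that these letters are not in these windows.

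The acyl-CoA dehydrogenases carry out the first step of each round. None of the 7 tested passed, where 32.1% of all genes tested did. Their log2 fold changes ran from −0.32 for ACAD10 to 0.36 for ACADM. ACADM, the medium-chain dehydrogenase, came closest, with 790, 1059 and 1018 normalized counts in vehicle and 1263, 1196 and 1241 in VPA. Its groups did not overlap, its log2 fold change was 0.36 ± 0.13, and its adjusted p of 0.052 became 0.044 with DESeq2 and 0.0139 without vehicle replicate 3. ACAD10 passed without vehicle replicate 3 (−0.41, adjusted p = 0.0174) and ACAD8, the isobutyryl-CoA dehydrogenase of valine breakdown, without vehicle replicate 1 (0.37, adjusted p = 0.025). ACADS, ACADVL, ACADSB and ACAD9 had estimates between −0.24 and 0.15.

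The hydratase, hydroxyacyl dehydrogenase and thiolase steps had 3 genes higher of 5, where 16.4% of all genes were higher, and no estimate below 0. HADH (ENSG00000138796, chromosome 4, 107989714 to 108035175, plus strand), the short-chain hydroxyacyl-CoA dehydrogenase, had 1048, 1049.6 and 959 normalized counts in vehicle and 1393, 1528.5 and 1292 in VPA. On the log2 scale the change was 0.45 ± 0.11 (adjusted p = 0.0091), with no overlap between the groups. HADHA (ENSG00000084754, chromosome 2, 26190635 to 26244726, minus strand) had 2960.1, 2627 and 2701 normalized counts in vehicle and 3828, 3702 and 3498 in VPA, and HADHB (ENSG00000138029, chromosome 2, 26243170 to 26290468, plus strand) had 1506, 1612 and 1562 against 2041, 1987 and 1749. The log2 fold changes were 0.40 ± 0.10 (adjusted p = 0.0090) for HADHA and 0.29 ± 0.10 (adjusted p = 0.049) for HADHB. These subunits are divergently transcribed, with RefSeq starts 307 bases apart, and their HADHA to HADHB ratio of FPKM was 1.73 ± 0.17 in vehicle and 1.87 ± 0.07 in VPA, with libraries that overlapped. The call on HADH was lost without VPA replicate 2 (adjusted p = 0.067), that on HADHA without vehicle replicate 2, VPA replicate 1 or VPA replicate 2 (adjusted p of 0.051 to 0.052), and that on HADHB with RLE factors (adjusted p = 0.055), with the replicate block (adjusted p = 0.12) and without vehicle replicate 1 or 2 or any VPA library (adjusted p of 0.052 to 0.18). ECHS1 gave 0.17 ± 0.10 and ACAA2, the thiolase, 0.22 ± 0.13, neither past the threshold.

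DECR1 (ENSG00000104325), which reduces the double bonds that the spiral cannot handle, had 377, 464 and 520 normalized counts in vehicle and 609, 675 and 592 in VPA. The groups did not overlap, and the log2 fold change was 0.45 ± 0.14 (adjusted p = 0.032). Without vehicle replicate 1 or 2, or without any single VPA library, its adjusted p lay between 0.053 and 0.13. The enoyl-CoA isomerases gave 0.23 ± 0.12 (ECI2) and −0.01 ± 0.16 (ECI1). None of the 3 electron transfer genes passed, where 32.1% of all genes tested did. Their estimates were 0.25 ± 0.14 for ETFA, −0.19 ± 0.20 for ETFB and 0.04 ± 0.17 for ETFDH, the oxidoreductase that hands the electrons to ubiquinone. ETFA had an adjusted p of 0.18, and 0.043 without vehicle replicate 3. Of the 4 peroxisomal enzymes none passed, beside the same 32.1% of all genes. HSD17B4, the multifunctional protein of very long-chain and branched substrates, came closest with 1902, 2067 and 2105 normalized counts against 2543, 2490.4 and 2306 (0.26 ± 0.10, adjusted p = 0.063). Without vehicle replicate 3 HSD17B4 had an adjusted p of 0.023, and EHHADH, the bifunctional enzyme that gave 0.61 ± 0.28, an adjusted p of 0.036.

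**Figure D2:**
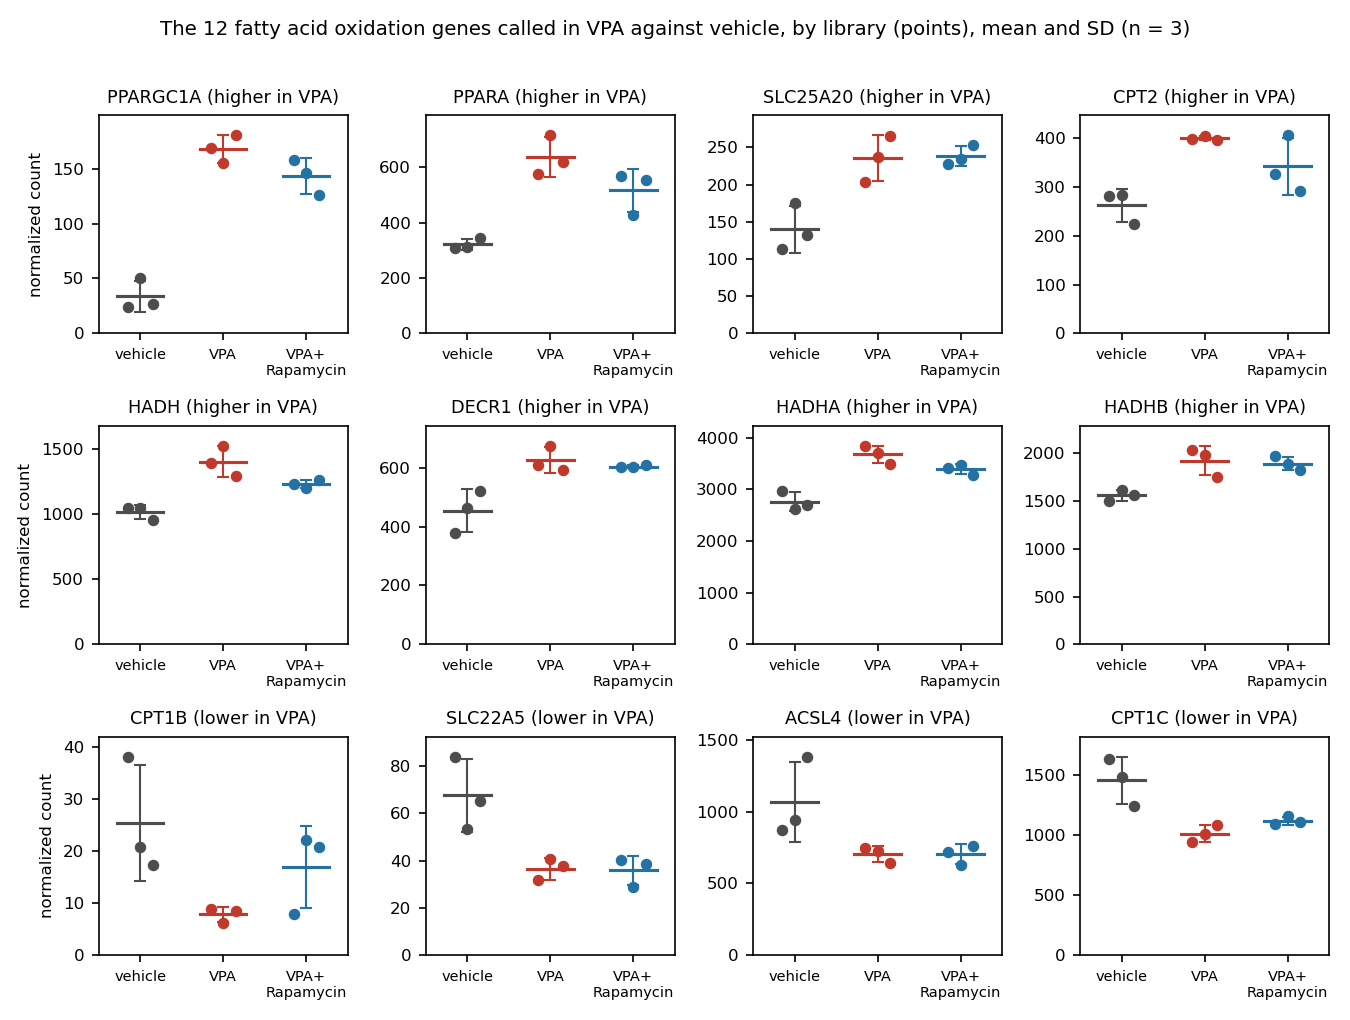
Normalized counts (vertical axes, from 0) of the 12 genes called in VPA against vehicle, with 3 libraries per group as points, the mean as a line and the SD as bars. Vehicle and VPA libraries do not overlap in any panel, and the VPA+Rapamycin libraries of PPARGC1A, 126 to 158, lie far above the highest vehicle library at 50.0.

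Reads shared with overlapping genes limit several of these values. The use of strand in counting is not given in the sources used here, and 24 of the 37 genes overlap another gene in position, 16 of them with a partner whose mean count exceeds 10% of their own. CPT1B averaged 16.7 reads and the read-through gene CHKB-CPT1B that spans it on the same strand 22.9. CPT2 (336 reads) overlaps C1orf123 (603 reads) on the other strand, DECR1 (562) overlaps NBN (1088), SLC22A5 (46.6) overlaps MIR3936HG (33.4), and HADHA and HADHB overlap each other. For these genes the counts are uncertain to the extent that reads were assigned to the wrong partner.

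The second comparison asked what Rapamycin added to VPA changed. None of the 34 genes tested passed, where 6.74% of all 17317 genes did, 3.01% higher and 3.73% lower with Rapamycin. DESeq2 also called 0, and 4 genes had an unadjusted p under 0.05, namely CPT1A, HADH, ETFA and PPARA. Estimates were below 0 for 24 genes and above 0 for 10, with a median log2 fold change of −0.04 against 0.00 over all genes. The libraries did not overlap for 7 of the 34 (20.6%), against 25.5% of all genes tested. ETFA, a subunit of the electron transfer flavoprotein, had the smallest adjusted p, 0.098, with 1335, 1288 and 1086 normalized counts under VPA alone against 1082, 939.5 and 1075 with Rapamycin added. Its log2 fold change was −0.26 ± 0.09, and it passed without VPA replicate 3 (−0.34, adjusted p = 0.044), the only call among the members when single libraries were left out.

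For the regulators, PPARGC1A had 158, 146 and 126 normalized counts with Rapamycin, which overlapped with VPA alone (−0.22 ± 0.17, adjusted p = 0.48). PPARA had 570, 428 and 554, all below the lowest VPA library at 576, but −0.30 ± 0.12 did not pass (adjusted p = 0.14). CPT1A went the other way, with 63.9, 101 and 80.1 normalized counts against 45.4 to 61.0 in VPA, a log2 fold change of 0.59 ± 0.25 that did not pass (adjusted p = 0.17). HADH had 1236, 1203 and 1262 against 1292 to 1528.5 (−0.18 ± 0.08, adjusted p = 0.18). SLC25A20 (0.02 ± 0.14) and ACSL4 (−0.00 ± 0.10) had estimates near 0. CPT1B, at 7.86, 22.1 and 20.8 normalized counts, had too few reads for a test here.

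The third comparison set VPA+Rapamycin against the same vehicle libraries, which it shares with the first comparison. Of 35 genes tested 5 passed, 3 higher and 2 lower, or 14.3% against 19.0% of all 17383 genes, of which 9.81% were higher and 9.22% lower. DESeq2 called 6 of the genes, and upper-quartile factors gave 5 higher and 1 lower. The libraries did not overlap for 16 of the 35 (45.7%), against 38.5% of all genes tested. The median log2 fold change was 0.07 against −0.00 over all genes. Without vehicle replicate 3 there were 6 raised and 2 lowered, without VPA+Rapamycin replicate 1 or 3 there was 1 raised and none lowered, and without vehicle replicate 2 or VPA+Rapamycin replicate 2 there were 2 raised and none lowered.

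PPARGC1A stayed well above vehicle, with a log2 fold change of 2.09 ± 0.29 (adjusted p = 0.0014). PPARA gave 0.67 ± 0.15 (adjusted p = 0.0116), and SLC25A20, with 228, 235 and 253 normalized counts, 0.76 ± 0.19 (adjusted p = 0.021). Among the lower genes, ACSL4 had 719, 628 and 763 normalized counts (−0.61 ± 0.17, adjusted p = 0.031) and CPT1C 1094, 1158 and 1105 (−0.39 ± 0.12, adjusted p = 0.045). Only the call on PPARGC1A held without every single library. That on PPARA was lost without vehicle replicate 2 (adjusted p = 0.051) or VPA+Rapamycin replicate 1 or 3 (0.065 and 0.055), and that on SLC25A20 without any VPA+Rapamycin library (0.064 to 0.079). For ACSL4 it was lost without vehicle replicate 2 or any VPA+Rapamycin library (adjusted p of 0.053 to 0.13), and for CPT1C without vehicle replicate 1 or 2 or any VPA+Rapamycin library (0.071 to 0.16) and with upper-quartile factors (0.066).

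The other 7 genes called in VPA did not pass against vehicle here in the test without a block. SLC22A5, at 40.3, 28.8 and 38.5 normalized counts, gave −0.92 ± 0.30 and lay just above the threshold (adjusted p = 0.0504). CPT2 had 327, 407 and 292 normalized counts, spread more widely than in VPA, and gave 0.37 ± 0.17 (adjusted p = 0.15). HADHA gave 0.29 ± 0.10 (adjusted p = 0.067), HADHB 0.27 ± 0.10 (adjusted p = 0.081), HADH 0.27 ± 0.10 (adjusted p = 0.095) and DECR1 0.40 ± 0.14 (adjusted p = 0.070). CPT1B gave −0.59 ± 0.49 (adjusted p = 0.43). ACSL1 had 165, 213 and 193 normalized counts, above all vehicle libraries, and gave 0.97 ± 0.36 (adjusted p = 0.088), which passed with DESeq2 (adjusted p = 0.034), with the replicate block (adjusted p = 0.0067) and without vehicle replicate 3 (1.51, adjusted p = 0.0024). The block also put SLC22A5 (adjusted p = 0.041) and DECR1 (adjusted p = 0.046) past the threshold. A call in the first comparison and none in the third does not show that the effects differ, since the direct test is the second comparison, where no gene passed.

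**Figure D3:**
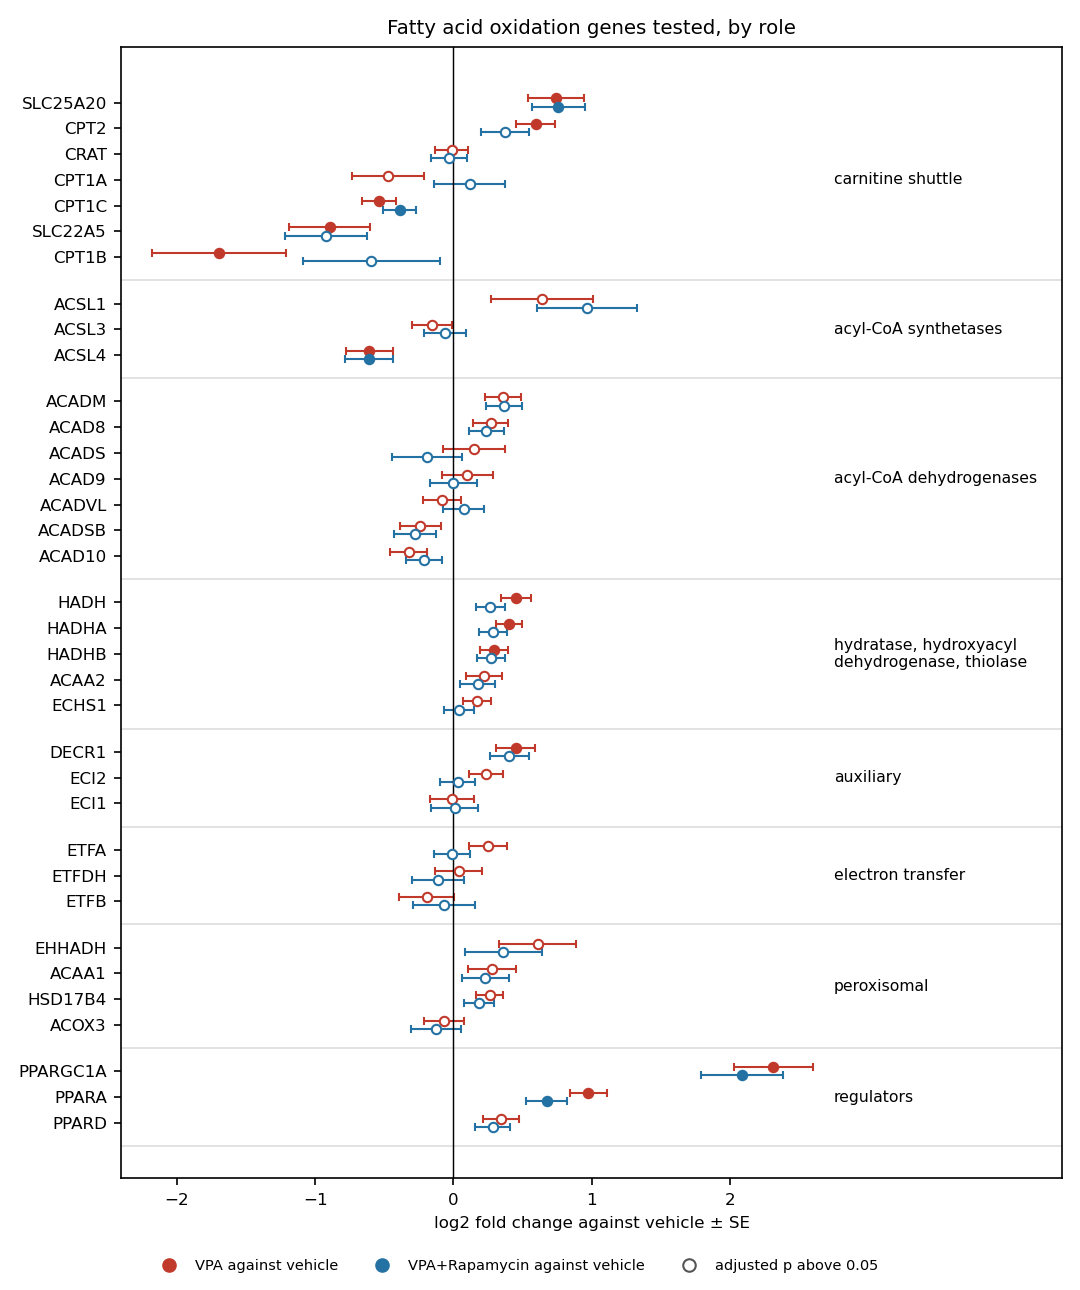
Log2 fold change against vehicle (horizontal axis, ± SE) of the 35 genes tested, grouped by role, for VPA (red) and VPA+Rapamycin (blue), with filled points where the adjusted p is at most 0.05. PPARGC1A lies farthest to the right at 2.31 and 2.09, the carnitine shuttle spreads from −1.69 to 0.74 in VPA, and both series share the vehicle libraries.

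The wider pathway was read from 10 further lists of genes around fatty acid oxidation. Among fatty acid uptake and acyl-CoA synthesis genes, 5 of 17 tested were higher and 3 lower in VPA than in vehicle. Over all genes tested 16.4% were higher and 15.7% lower in this comparison, which is the background for every list below. The fatty acid transporter SLC27A4 had 725, 710.2 and 663 normalized counts in vehicle and 1310.2, 1467 and 1476 in VPA (1.01 ± 0.11, adjusted p = 0.00010), and ACSS3, a synthetase for propionate and other short chains, gave 0.79 ± 0.13 (adjusted p = 0.0010). With Rapamycin against VPA no uptake gene was higher and 3 were lower, including the brain fatty acid binding protein FABP7 (−0.55 ± 0.08, adjusted p = 0.00029), which also serves here as a progenitor marker. Carnitine synthesis genes gave 1 higher and 1 lower of 5 tested, ALDH9A1 at 0.54 ± 0.12 (adjusted p = 0.0070) and TMLHE, the first enzyme of that synthesis, at −0.59 ± 0.18 (adjusted p = 0.027). The call on TMLHE was lost without vehicle replicate 3 or any VPA library (adjusted p of 0.056 to 0.10). Of 9 acyl-CoA thioesterases 3 were higher and none lower, led by ACOT9 (0.67 ± 0.13, adjusted p = 0.0030).

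Enzymes of branched-chain and short-chain acyl-CoA breakdown gave 6 higher and 3 lower of 22 tested, beside 16.4% and 15.7% of all genes. HSD17B10, which acts in isoleucine breakdown and in mitochondrial tRNA processing, had 387, 381 and 374 normalized counts in vehicle and 647, 729 and 785 in VPA (0.91 ± 0.12, adjusted p = 0.00037). BCKDHB, a subunit of the branched-chain ketoacid dehydrogenase, rose from 651, 746 and 788 to 1227, 1328 and 1163 (0.76 ± 0.12, adjusted p = 0.00090) and fell with Rapamycin against VPA to 1002, 963 and 1052 (−0.30 ± 0.08, adjusted p = 0.032). This second call on BCKDHB was lost without VPA replicate 1 or 2 or any VPA+Rapamycin library (adjusted p of 0.058 to 0.19). MCEE, the methylmalonyl-CoA epimerase, was lower in VPA (−0.74 ± 0.19, adjusted p = 0.0128), a call lost without vehicle replicate 2, VPA replicate 1 or VPA replicate 2 (0.052 to 0.062). Among the ketone body genes 2 of 6 were higher and 1 lower. ACAT2, a cytosolic thiolase that also feeds sterol synthesis, fell from 1187, 1114 and 890.4 to 546, 568 and 525 in VPA (−0.97 ± 0.13, adjusted p = 0.00034), and to 459, 434 and 389 with Rapamycin (−0.35 ± 0.10 against VPA, adjusted p = 0.046). Without any VPA library, or without VPA+Rapamycin replicate 2 or 3, the latter adjusted p was 0.069 to 0.18.

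Peroxisomal oxidation and import genes gave 2 higher and 3 lower of 15 in VPA, beside 16.4% and 15.7% of all genes. ABCD3, an importer of branched and long-chain acyl-CoA, had 729, 817 and 942 normalized counts in vehicle and 1484, 1429 and 1292 in VPA (0.75 ± 0.12, adjusted p = 0.0013), and ABCD4, a lysosomal cobalamin exporter of the same family, gave −0.71 ± 0.15 (adjusted p = 0.0042). Of 21 further PPAR and PGC-1 regulators 2 were higher and 5 lower. PPARGC1B, the close relative of PPARGC1A, had 36.2, 23.9 and 37.8 normalized counts in vehicle and 120.4, 108 and 90.1 in VPA (1.68 ± 0.28, adjusted p = 0.0012), while LPIN1, a phosphatidate phosphatase that also works as a PPARA coactivator, gave −0.86 ± 0.13 (adjusted p = 0.00070). The corepressor NCOR1 gave −0.47 ± 0.10 (adjusted p = 0.0045). PPARG itself had 0 to 12.5 normalized counts and no test.

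Of 9 genes known as PPAR targets and tested, 2 were higher and 2 lower in VPA, beside 16.4% and 15.7% of all genes. TXNIP, a brake on glucose uptake, gave 0.55 ± 0.11 (adjusted p = 0.0029), and PLIN2, the coat protein of lipid droplets, −0.44 ± 0.12 (adjusted p = 0.0175). PDK4, which blocks pyruvate entry and is a standard readout of PPAR activity, had 27.4, 46.8 and 54.2 normalized counts in vehicle, 10.9, 4.08 and 24.4 under VPA alone and 40.3, 42.3 and 60.4 with Rapamycin added. The VPA libraries were below all others, and PDK4 was 1 of the 2 targets lower in VPA than in vehicle (−1.69 ± 0.54, adjusted p = 0.034). This call rests on few reads and was not examined without single libraries or under other settings. Rapamycin against VPA gave 1.84 ± 0.46 (adjusted p = 0.022), a call lost without VPA replicate 1 or 2 or VPA+Rapamycin replicate 3 (0.077, 0.088 and 0.12). For PLIN2 the call was lost without vehicle replicate 2 or any VPA library (0.058 to 0.082). The list for control by malonyl-CoA, the inhibitor of CPT1, and by the kinase AMPK gave 1 higher and 3 lower of 10. ACACA gave −0.48 ± 0.11 (adjusted p = 0.0060) and its mitochondrial relative ACACB 0.61 ± 0.14 (adjusted p = 0.0083, and 0.053 without VPA replicate 3). The other lower genes encode AMPK subunits, among them PRKAB2 at −0.47 ± 0.14 (adjusted p = 0.021, and 0.054 to 0.10 without any single VPA library). Of 8 flavin supply and electron transfer genes 1 was higher, the riboflavin transporter SLC52A2 (0.36 ± 0.12, adjusted p = 0.046), which did not pass with DESeq2 (0.057) or without vehicle replicate 1 or 2 or any VPA library (0.067 to 0.17). With Rapamycin against VPA, PDK4 and the orphan receptor ESRRG (0.54 ± 0.09, adjusted p = 0.0016) were the only higher genes of these 10 lists. Lower were 3 of 17 uptake genes, 1 of 5 carnitine synthesis genes and 2 of 22 branched-chain and short-chain genes. So were 2 of 6 ketone body genes and 1 of 9 PPAR targets, and none in the other lists. Over all genes 3.01% were higher and 3.73% lower. With all 9 libraries in a single fit, each of these higher and lower genes lost its call in this comparison (adjusted p of 0.096 to 0.23). With the replicate block BCKDHB (0.052), ACAT2 (0.055) and the fatty acid binding protein FABP5 (0.063) did.

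**Figure D4:**
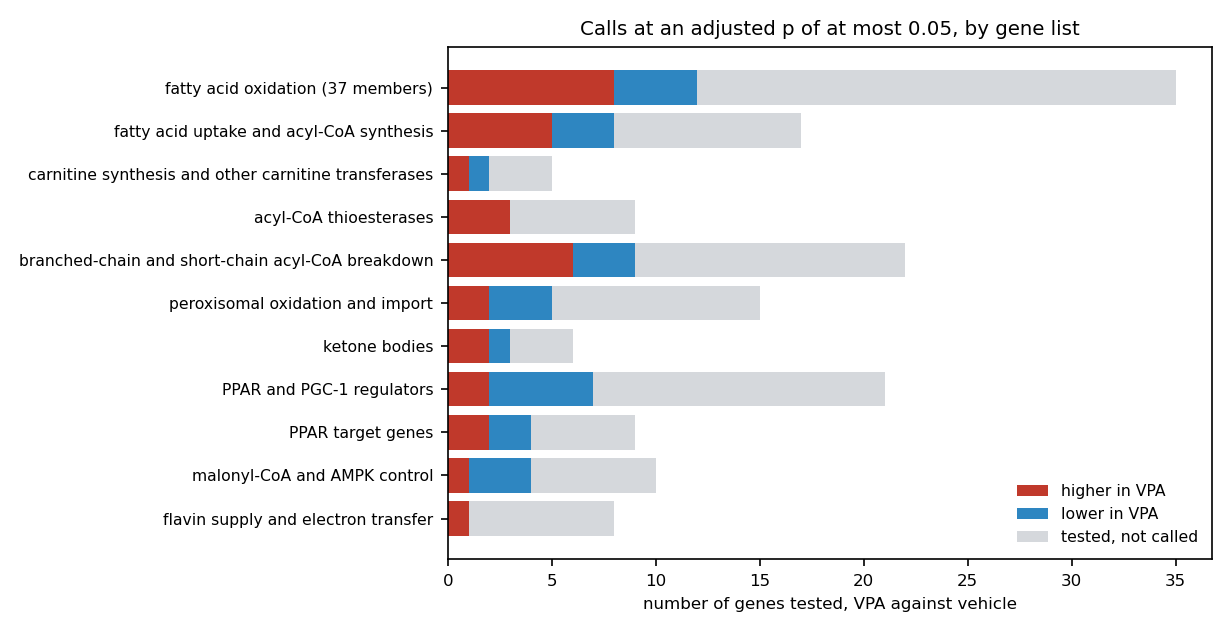
Number of genes tested in VPA against vehicle (horizontal axis) in the fatty acid oxidation set and in 10 related lists, split into higher (red), lower (blue) and not called (grey) at an adjusted p of 0.05. The set itself has 8 higher and 4 lower of 35, and most lists hold calls in both directions.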

How the data were processed

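Whole-organoid mRNA was measured in 9 libraries, 3 for each condition. The deposited tables, 1 for each pair of conditions, hold raw counts of reads for each gene, and a gene is listed only if its 6 libraries together have at least 2 reads. The submitters' processing notes name HISAT2 2.0.5 and featureCounts 1.5.0-p3. The use of strand and the annotation release are not given in the sources used here, and gene coordinates match GRCh38. The deposited FPKM values, scaled by the authors with a size factor for each library, were used only to compare levels between genes. The authors' own fold changes and p-values were not used, nor were 18 columns of normalized values.

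Each pair was tested in R 4.3.3 with edgeR 4.0.16 (TMM, filterByExpr, quasi-likelihood F test, Benjamini-Hochberg adjustment, threshold 0.05, no block), and DESeq2 1.42.0 served as an alternative. The scripts were tested on simulated data. For normalized counts, the TMM factors were computed once from all 9 libraries. Fold changes carry the SE from the fit, and group values the SD. Counting error is small at these depths except for genes with few reads. The 37 genes and all lists were chosen with earlier results of these data known. Full values are given for genes passing in at least 1 comparison. From each further list at most the 3 genes of smallest adjusted p in each comparison are named, besides PPARG. Libraries of a group differed by more than sampling noise (chi-square of 4.72 to 39.1 per gene). The paper presents the 3 libraries of a condition as 3 clones of the same cell line, under other clone names than the labels carry, so p-values measure the spread between these samples of 1 line.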

Additional observations from a re-analysis of the deposited data

How the results depend on the processing

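The counts of calls over the set moved by more than 1.5 times under these settings. Leaving out each library in turn gave 3 to 13 genes raised and 1 to 5 lowered in VPA against vehicle, with 3390 to 6710 genes called in all, and 0 to 1 lowered with Rapamycin against VPA, with 472 to 1203 in all. Against vehicle, VPA+Rapamycin gave 1 to 6 raised and 0 to 2 lowered, with 1295 to 4314 in all. In the latter comparison upper-quartile factors gave 5 raised and 1 lowered, and all 9 libraries in a single fit 8 raised, while this joint fit called 113 genes in all for Rapamycin against VPA. The replicate block, in which the replicate number enters the model, gave 5 raised in VPA+Rapamycin against vehicle. Same-numbered libraries correlated only weakly in their deviations from the group means (−0.060 to 0.17), and the main test did not take the numbers as pairs. However, the sample descriptions repeat the same 3 names in each condition. ECHDC3, given below, had reads only in the libraries numbered 3 of each condition. Whether same-numbered libraries share a source was not tested. Libraries of different numbers gave correlations of −0.18 to 0.083, a range that overlaps with that of the same-numbered ones. Some libraries correlated best with their own number and others did not. The block kept 8 raised and 3 lowered in VPA against vehicle and 0 in Rapamycin against VPA. Under the block HADHB and SLC22A5 lost their calls in VPA against vehicle (adjusted p = 0.12 and 0.064), ACSL1 gained one (0.79, adjusted p = 0.047), and SLC22A5, DECR1 and ACSL1 gained one in VPA+Rapamycin against vehicle (adjusted p = 0.041, 0.046 and 0.0067).

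Estimates near 0 changed sign. In VPA against vehicle, upper-quartile factors gave 0.0197 for CRAT and 0.0203 for ECI1, no filter gave 0.000629 and the replicate block 0.0121 for ECI1. Leaving out single libraries gave −0.0616 to 0.093 for CRAT, −0.30 to 0.0204 for ACSL3, −0.21 to 0.0903 for ACADVL, −0.0626 to 0.24 for ACAD9, −0.15 to 0.19 for ECI1, −0.34 to 0.0307 for ETFB, −0.0497 to 0.20 for ETFDH and −0.12 to 0.0127 for ACOX3. For Rapamycin against VPA it gave −0.0773 to 0.12 for SLC25A20, −0.13 to 0.11 for SLC22A5, −0.0688 to 0.0706 for ACSL4, −0.0857 to 0.0212 for HADHB, −0.0843 to 0.00982 for DECR1 and −0.0326 to 0.0302 for ACADM. For VPA+Rapamycin against vehicle it gave −0.0605 to 0.27 for CPT1A and −0.13 to 0.0749 for ETFA, and upper-quartile factors gave 0.0232 for ETFA. The cause was not tested. With 3 libraries per group, an adjusted p above the threshold does not show that a gene did not differ, and CPT1B and SLC22A5 rest on few reads.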

Other observations

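ECHDC3, a gene of the branched-chain and short-chain list that was singled out after its values were seen, had 0 reads in the libraries numbered 1 and 2 of all 3 conditions and 29.6, 60.1 and 44.8 normalized counts in the libraries numbered 3 of vehicle, VPA and VPA+Rapamycin. A count of 0 allows up to 3 reads, or 2.88 to 3.26 normalized counts in these 6 libraries. It was not tested in any comparison.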
